A study of Mus musculus with 6 samples.

Results

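The genes described here encode the machinery that copies DNA and supplies its building blocks. They were 47 genes chosen by name for origin licensing, the replicative helicase, the DNA polymerases, the sliding clamp, single-strand binding, Okazaki fragment maturation, nucleotide synthesis and histone supply, and all 47 were found among the 24043 gene symbols of the table. The study sequenced RNA from mouse embryonic stem (ES) cells in 6 libraries, 3 from wild-type cells (labelled Ctrl) and 3 from cells labelled Q-KO, which were made without G1 cyclins, the regulatory subunits that drive cells from G1 into S phase. Both groups were grown in Knockout DMEM that contained LIF (leukaemia inhibitory factor), PD184352 (a MEK inhibitor) and CHIR99021 (a GSK3 inhibitor), and total RNA was extracted with Trizol. The labels name no line, clone or strain and do not say whether the replicates were separate cultures. The p-values therefore measure only how far these samples spread, which may be technical in part. The wild-type libraries also differed among themselves in Y-linked transcripts, as given below. The comparison asks how transcript levels in cells without G1 cyclins differ from those in wild-type cells.

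A cell licenses its replication origins in G1, when the origin recognition complex, CDC6 and CDT1 load the MCM helicase onto DNA. At the start of S phase the kinases CDC7-DBF4 and CDK2 activate the helicase, and the polymerases, the clamp PCNA and its loader then build the replication fork. Many of these genes are textbook targets of the E2F transcription factors, which G1 cyclins and their kinases release from RB family proteins, and ES cells are known for a short G1 phase with abundant replication transcripts.

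Transcript levels were given as FPKM (fragments scaled to gene length and to library size), so that levels of different genes can be compared per length. FPKM sums per library were 525134 to 641715, and 11032 to 11591 genes per library reached 1 FPKM. The sources used here do not give the read depth, but the steps between low values put the other libraries at 1.10 to 1.22 times the depth of wild-type replicate 1. Of the G1 cyclins, Ccnd1 (21.1 to 40.6 FPKM in wild-type, 7.73 to 9.74 FPKM in Q-KO libraries), Ccnd3 (53.4 to 141 and 8.29 to 13.2 FPKM) and Ccne2 (6.19 to 7.94 and 2.82 to 3.12 FPKM) were lower in each Q-KO library. Ccne1 was not (37.5 to 55.9 and 65.3 to 87.3 FPKM), Ccnd2 was below 1 FPKM in all 6 libraries, and a gene-level value includes exons outside a deleted part, so directions are given for the libraries labelled Q-KO. The 6 ES cell markers examined summed to 1561 to 1712 FPKM in wild-type and 1631 to 1860 FPKM in Q-KO libraries. The 8 markers of fibroblast feeder cells summed to 1.80 to 3.07 FPKM in wild-type libraries and to 7.30, 1.69 and 1.33 FPKM in Q-KO replicates 1, 2 and 3, and the 7 markers of differentiated lineages to at most 3.30 FPKM in any library. The 5 Y-linked genes examined were each at 0 in wild-type replicates 1 and 2 and summed to 98.6 FPKM in wild-type replicate 3 and to 43.2 to 70.5 FPKM in the Q-KO libraries. No Q-KO library lacked these transcripts, so this split runs partly along with genotype and cannot be fully told apart from it. A fit with a term for this split was among the alternatives. Such a fit sets the Q-KO libraries against wild-type replicate 3 alone, and with it 12 of the 47 members had the other sign of change.

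The promoters of 6 members are shown first, and of these members only Pold1 passed the threshold given below. The 6 were chosen after their values were seen. Pold1, Pold2, Mcm10 and Pola1 were the members with the lowest unadjusted p among those lower in the Q-KO libraries, Rpa2 had the highest log2 change, and Mcm6 stands for the helicase genes, whose levels overlapped between the groups. The sequences are the 250 bases before the gene start in RefSeq, build GRCm38.p6, read 5′ to 3′ on the strand of the gene. Capitals mark exact matches to the E2F motif letters TTTCCCGC, TTTGGCGC, TTTGCCGC or TTTCGCGC and to the CCAAT box, each on either strand, so that a CCAAT box on the other strand reads ATTGG.
Pold1 (chr7:44548816-44549065, minus strand): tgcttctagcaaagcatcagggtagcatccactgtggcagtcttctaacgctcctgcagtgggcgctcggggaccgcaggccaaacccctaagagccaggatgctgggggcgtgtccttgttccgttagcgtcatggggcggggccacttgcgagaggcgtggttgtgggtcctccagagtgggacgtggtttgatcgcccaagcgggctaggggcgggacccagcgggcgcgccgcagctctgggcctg
Pold2 (chr11:5878257-5878506, minus strand): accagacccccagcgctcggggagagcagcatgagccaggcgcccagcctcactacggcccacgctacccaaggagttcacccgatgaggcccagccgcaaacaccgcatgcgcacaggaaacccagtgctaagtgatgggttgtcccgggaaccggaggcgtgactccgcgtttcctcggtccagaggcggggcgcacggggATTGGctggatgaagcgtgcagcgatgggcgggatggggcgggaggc
Mcm10 (chr2:5012792-5013041, minus strand): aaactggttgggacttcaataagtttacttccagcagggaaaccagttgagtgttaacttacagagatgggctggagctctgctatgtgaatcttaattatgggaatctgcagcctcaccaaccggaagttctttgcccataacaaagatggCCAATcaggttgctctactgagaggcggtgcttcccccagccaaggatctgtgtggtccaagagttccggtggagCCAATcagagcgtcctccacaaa
Pola1 (chrX:93632156-93632405, minus strand): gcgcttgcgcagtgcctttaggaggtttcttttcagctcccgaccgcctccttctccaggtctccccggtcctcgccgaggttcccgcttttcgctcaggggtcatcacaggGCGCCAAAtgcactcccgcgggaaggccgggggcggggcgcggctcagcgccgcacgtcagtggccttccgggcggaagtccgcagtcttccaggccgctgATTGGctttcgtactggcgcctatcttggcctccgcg
Rpa2 (chr4:132768110-132768359, plus strand): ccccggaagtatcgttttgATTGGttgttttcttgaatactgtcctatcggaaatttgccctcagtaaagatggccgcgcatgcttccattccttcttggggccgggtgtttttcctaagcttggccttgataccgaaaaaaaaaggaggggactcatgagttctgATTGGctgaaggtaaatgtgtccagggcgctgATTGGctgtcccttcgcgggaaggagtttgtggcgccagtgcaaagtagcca
Mcm6 (chr1:128359706-128359955, minus strand): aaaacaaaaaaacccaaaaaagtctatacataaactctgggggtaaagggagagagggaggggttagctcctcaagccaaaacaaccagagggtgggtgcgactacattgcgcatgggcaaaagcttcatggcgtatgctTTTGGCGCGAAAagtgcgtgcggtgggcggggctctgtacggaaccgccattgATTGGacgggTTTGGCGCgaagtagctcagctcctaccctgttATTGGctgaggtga

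Of the 6 printed sequences, those of Pola1 and Mcm6 held E2F letters, and in the Mcm6 promoter 2 of the 3 E2F matches overlapped each other. Mcm6 had more matches than the other helicase genes searched, with 2 each for Mcm3, Mcm5 and Mcm7 and 0 for Mcm2. Pold2 has more than 1 start in the table, and the first is printed. Pold1 had a match after its start, outside the printed part, and Pold2, Mcm10 and Rpa2 had none in the 300 bases searched (250 before and 50 from the start on). Of the 47 members, 39 had an entry in the promoter table, with 48 windows in all because some have more than 1 start. An E2F match was found in 13 of the 48 windows (27.1%), against 2.26% of all 32851 windows. The 13 members were Cdc6, Cdt1, Gins3, Lig1, Mcm3, Mcm5, Mcm6, Mcm7, Orc3, Pola1, Pold1, Pole2 and Rfc3. A CCAAT box was found in 52.1% of the members' windows and 37.4% of all windows, the GC box GGGCGG in 72.9% and 35.7%, and the CHR letters TTTGAA, known from promoters of G2 and M phase genes, in 14.6% and 17.9%. The members were compared with all windows, without matching for transcript level or base composition, so the shares do not show what is particular to E2F. These matches are letters in a window and do not show that a factor was bound.

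The polymerase delta gene Pold1 fell in the Q-KO libraries, and for most of the other members the groups overlapped. All 47 members passed the filter of a mean of at least 1 FPKM, and their log2 changes (Q-KO minus wild-type, on the scale of log2(FPKM + 1)) ranged from -0.81 to 0.61 with a median of -0.04, against a median of 0.07 over the 11573 genes tested. With limma and Benjamini-Hochberg adjustment over all genes, 1 of the 47 passed the threshold of 0.05, Pold1. Of all genes, 4.06% passed in either direction, 1.02% lower and 3.04% higher. In bulk RNA, fewer cells in S phase and less RNA per cell cannot be told apart. The unadjusted p was under 0.05 for 11 members (23.4%), against 21.5% of all genes, so the count is near the background. By direction, these were 7 lower members (14.9%, background 6.70%) and 4 higher members (8.51%, background 14.8%). Separate ranges, with no overlap between the groups, were found for 16 members (34.0%, background 27.7%), 9 of them lower (background 9.44%) and 7 higher (background 18.2%) in the Q-KO libraries. The 95% interval of the change lay within 2-fold in either direction for 45 of the 47 members, the exceptions being Pold2 and Rpa2, and for 80.1% of all genes tested. It lay within 1.5-fold for 31 members (66.0%, against 38.9% of all genes).

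**Figure D1:**
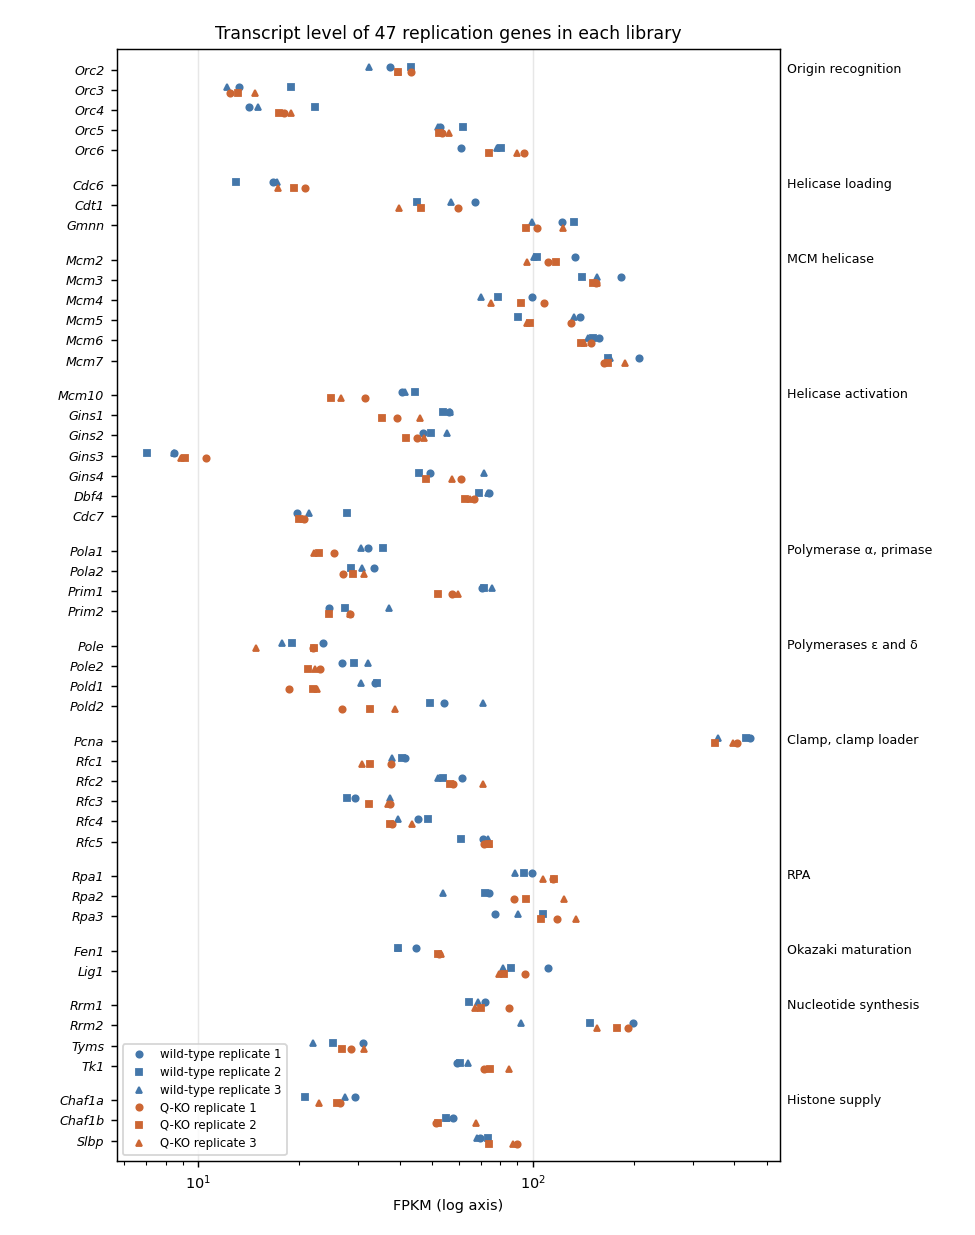
FPKM of each of the 47 replication genes (log axis) in the 3 wild-type (blue) and 3 Q-KO (orange) libraries, with a marker shape for each replicate and genes ordered by role. Pcna is the most abundant at 349 to 445 FPKM and Gins3 the least at 7.05 to 10.6 FPKM, and the groups separate for Pold1 and Pold2 but overlap for each gene of the MCM helicase.

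**Figure D2:**
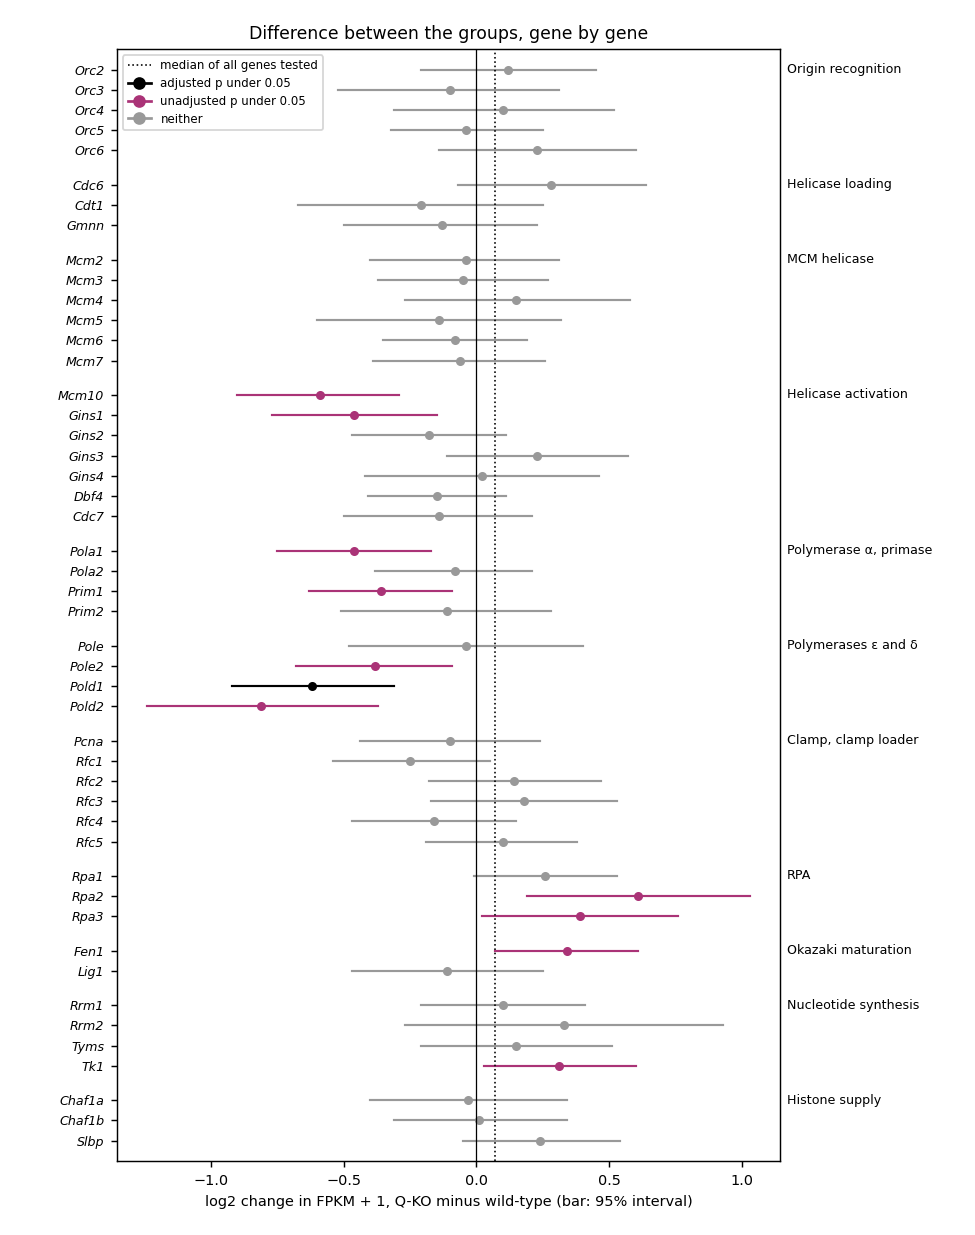
Log2 change in FPKM + 1, Q-KO minus wild-type, for each gene (point) with its 95% interval (bar), in black for an adjusted p under 0.05, purple for an unadjusted p under 0.05 and grey otherwise. The dotted line is the median of all genes tested (0.07), all 8 polymerase and primase genes shown lie below 0, and all 3 RPA genes lie above 0, with the main settings.

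The catalytic subunit of polymerase delta, the enzyme that extends Okazaki fragments on the lagging strand, is encoded by Pold1. The wild-type libraries, in the order of their replicate numbers here and below, had 33.9, 34.2 and 30.6 FPKM, and the Q-KO libraries had 18.7, 22.1 and 22.6 FPKM. Each Q-KO library was below each wild-type library, and the gene fell by 0.62 on the log2 scale (SE 0.13, 95% interval -0.92 to -0.31, limma adjusted p = 0.0440), from 32.9 ± 1.98 to 21.1 ± 2.13 FPKM (mean ± SD with n = 3, as for every mean given here). The call was close to the threshold: among the 6 fits that leave out a library it held only without wild-type replicate 3 (adjusted p = 0.0481, highest 0.185 without Q-KO replicate 2), and it was lost with no filter on low values, with no intensity trend, with the replicate number as a block (adjusted p = 0.0923) and with a term for Y-linked transcripts (adjusted p = 0.149).

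Its accessory subunit gene Pold2 had the largest difference of the 47. The wild-type libraries had 54.3, 49.3 and 70.9 FPKM, and the Q-KO libraries 26.9, 32.6 and 38.9 FPKM. The groups were separate, with wild-type replicate 3 the highest of the 6, and the log2 change was -0.81 (SE 0.19, 95% interval -1.24 to -0.37, limma adjusted p = 0.0564), which did not pass. The gene lies on chromosome 11, where genes were higher in wild-type replicate 3 as described below; without that library the change was -0.66 (adjusted p = 0.0826), and with each library centred by chromosome it was -0.83 (adjusted p = 0.0261). It also passed with the replicate number as a block (adjusted p = 0.0484), a robust fit (0.0443) and the term for Y-linked transcripts, which sets the Q-KO libraries against wild-type replicate 3 alone (-1.10, adjusted p = 0.0268). In RefSeq, Pold2 overlaps Aebp1, as 13 members overlap another gene (among them Pole2, Pola1, Rpa1, Fen1, Tk1 and Mcm7), and the strand setting of the counting is not given, so reads of such pairs may not be told apart.

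Polymerase epsilon extends the leading strand, and neither of its genes examined here passed. Pole2, its second subunit, was at 26.9, 29.2 and 32.3 FPKM in wild-type and 23.2, 21.3 and 22.4 FPKM in Q-KO libraries. The groups were separate, with a log2 change of -0.38 (SE 0.13, unadjusted p = 0.0164, limma adjusted p = 0.136). Pole, the catalytic subunit, was at 23.6, 19.1 and 17.8 FPKM and at 22.0, 22.2 and 14.9 FPKM, with wide overlap and a 95% interval of -0.48 to 0.40. Summed over Pole, Pole2, Pold1 and Pold2, the wild-type libraries had 139, 132 and 152 FPKM and the Q-KO libraries 90.8, 98.2 and 98.8 FPKM, without overlap.

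Polymerase alpha and primase start each new strand with a short primer. Pola1, the catalytic subunit of polymerase alpha, was at 32.1, 35.7 and 30.7 FPKM in wild-type and 25.5, 23.0 and 22.2 FPKM in Q-KO libraries. All Q-KO values were below all wild-type values, and the log2 change was -0.46 (SE 0.13, 95% interval -0.75 to -0.17, limma adjusted p = 0.0915). The primase catalytic subunit gene Prim1 was at 70.3, 71.7 and 75.4 FPKM and at 57.2, 52.1 and 59.6 FPKM, again without overlap (-0.36, SE 0.12, unadjusted p = 0.0159, limma adjusted p = 0.134). Their partner subunits overlapped between the groups: Pola2 was at 31.0 ± 2.52 and 29.2 ± 2.06 FPKM, and Prim2 at 29.7 ± 6.53 and 27.1 ± 2.23 FPKM. Of the 8 members that encode these polymerases and primase, 8 had a log2 change below 0 and 5 had separate ranges and an unadjusted p under 0.05. Only Pold1 passed over all genes. Of all genes tested, 40.7% were below 0, 9.44% had separate lower ranges and 6.70% were lower with an unadjusted p under 0.05. The count below 0 was 7 of 8 in 4 alternatives: Pole was above 0 with the Y-linked term and when wild-type replicate 1 or Q-KO replicate 3 was left out, and Prim2 when wild-type replicate 3 was. Further subunits of polymerases epsilon and delta, which are not members, overlapped between the groups. Pole3 (log2 change 0.08) and Pole4 (0.16) were above 0, and Pold3 (-0.12) and Pold4 (-0.04) were below.

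**Figure D3:**
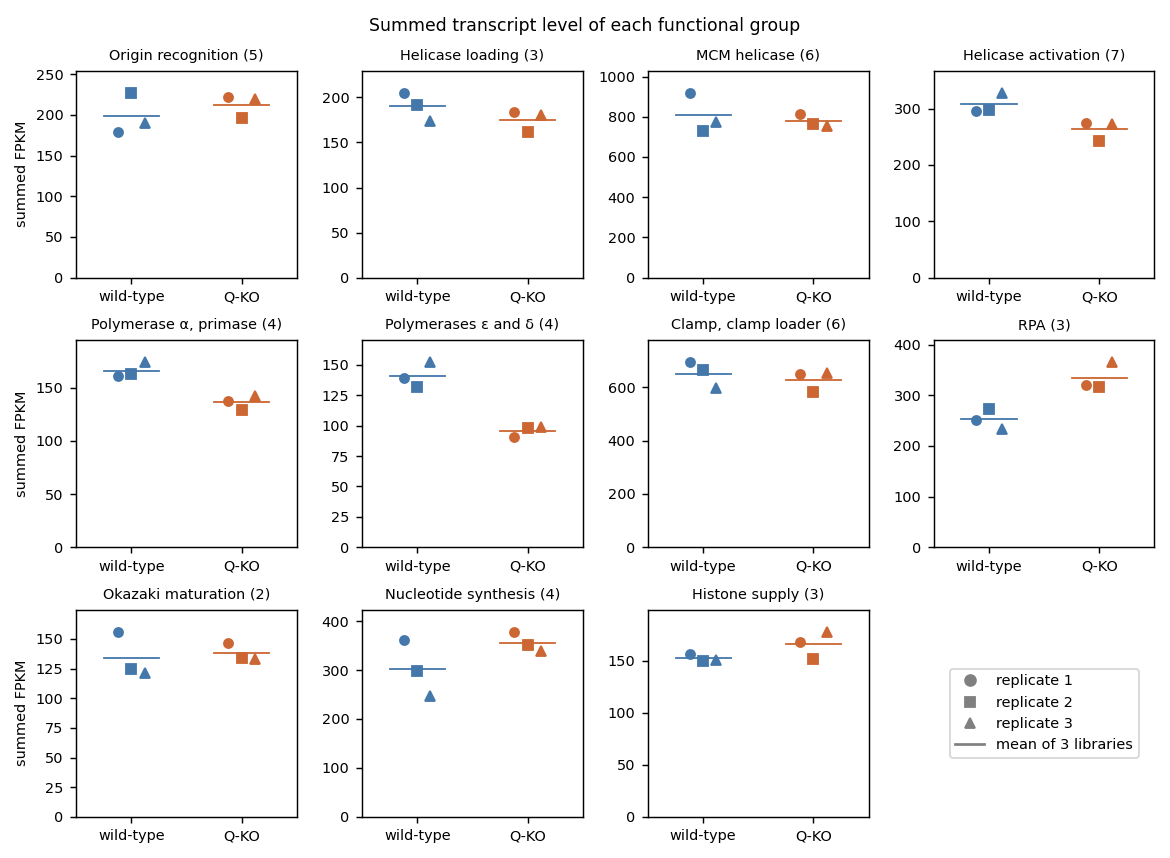
Summed FPKM of the members of each functional group (number of genes in brackets) in each library, with the axis from 0 and a line at the mean of the 3 libraries. The groups do not overlap for the polymerases, for helicase activation or for RPA, while the MCM helicase sum lies at 730 to 919 FPKM in wild-type and 753 to 815 FPKM in Q-KO libraries.

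Of the 7 helicase activation genes none passed. Separate ranges were found for 3 lower genes (Mcm10, Gins1 and Dbf4) and 1 higher gene (Gins3). Of all genes tested, 9.44% had separate lower and 18.2% separate higher ranges. MCM10, which helps the loaded helicase unwind DNA, had its transcript at 40.8, 44.5 and 41.4 FPKM in wild-type and 31.5, 24.9 and 26.8 FPKM in Q-KO libraries. The ranges were separate and the wild-type libraries lay close together, with a log2 change of -0.59 (SE 0.13, 95% interval -0.90 to -0.29, limma adjusted p = 0.0511) that did not pass. It passed in 4 of the 16 alternatives (lowest adjusted p = 0.0331, with median-of-ratios scaling). Gins1, a subunit of the GINS complex that joins the helicase to CDC45, was at 56.2, 53.8 and 56.6 FPKM and at 39.2, 35.5 and 46.0 FPKM. Here too the groups were separate (-0.46, SE 0.13, limma adjusted p = 0.102).

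The other subunits of GINS did not pass either. Gins2 was at 50.8 ± 4.32 and 44.7 ± 2.76 FPKM and Gins4 at 55.6 ± 14.1 and 55.5 ± 6.78 FPKM in wild-type and Q-KO libraries, both with overlap. Gins3, the least abundant member, was at 8.47, 7.05 and 8.49 FPKM in wild-type and 10.6, 9.16 and 8.89 FPKM in Q-KO libraries. Its ranges were separate in the upward direction, but the change of 0.23 (SE 0.15, limma adjusted p = 0.414) was within 2 SE. Dbf4, the activating subunit of the CDC7 kinase, was at 74.1, 69.3 and 73.4 FPKM and at 66.8, 62.9 and 65.0 FPKM, lower in each Q-KO library by a small step (-0.15, SE 0.11, limma adjusted p = 0.475). Cdc7 itself was at 22.9 ± 4.26 and 20.5 ± 0.332 FPKM.

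The genes of the MCM helicase, which is loaded onto origins in G1, were abundant and overlapped between the groups. Mcm7 led them at 207, 168 and 170 FPKM in wild-type and 163, 168 and 189 FPKM in Q-KO libraries, followed by Mcm3 and Mcm6, and Mcm4 was lowest at 82.6 ± 15.1 and 91.8 ± 16.6 FPKM. Mcm6, at 146 to 158 FPKM in wild-type and 139 to 149 FPKM in Q-KO libraries, varied least of the 6 among the wild-type libraries. Of the 6 genes, 5 had a log2 change below 0 and 1 above, from -0.14 for Mcm5 to 0.15 for Mcm4. Without wild-type replicate 1, 4 of the 6 were above 0. No interval reached 2-fold, and that of Mcm6 was -0.35 to 0.19. For Mcm7 the log2 change was -0.06 (SE 0.14, limma adjusted p = 0.828), and 0.02 with the Y-linked term.

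The origin recognition genes ranged from 12.2 FPKM for Orc3 to 94.0 FPKM for Orc6 in a library. All 5 overlapped between the groups, with log2 changes from -0.10 to 0.23. Orc6, the most abundant, was at 60.9, 80.2 and 78.4 FPKM in wild-type and 94.0, 73.9 and 89.5 FPKM in Q-KO libraries (0.23, SE 0.16, limma adjusted p = 0.449). Cdc6, an ATPase that helps to load the helicase, had 16.8, 13 and 17.2 FPKM in the wild-type. The Q-KO libraries had 20.9, 19.4 and 17.3 FPKM. The lowest Q-KO library was just above the highest wild-type library, and the change of 0.28 (SE 0.15, limma adjusted p = 0.335) did not pass. Cdt1, its partner in loading, was at 45.2 to 67.1 and 39.8 to 59.9 FPKM, and Gmnn, which encodes the CDT1 inhibitor geminin, was at 122, 133 and 99.3 FPKM and at 103, 95.2 and 123 FPKM (-0.13, SE 0.16, limma adjusted p = 0.674). With the Y-linked term the change of Gmnn was 0.10.

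The clamp PCNA, which tethers the polymerases to DNA, had the most abundant transcript of the 47, above 98.4% of all genes tested. Pcna was at 445, 432 and 358 FPKM in wild-type and 406, 349 and 396 FPKM in Q-KO libraries. The groups overlapped, and the 95% interval of the log2 change was -0.44 to 0.24; with the Y-linked term the change was 0.10. Pcna has 2 pseudogenes named after it in RefSeq and Tyms has 1, so their values are uncertain. The clamp loader genes Rfc1 to Rfc5 lay between 27.8 and 74.1 FPKM. Rfc1, the large subunit, was at 41.6, 40.6 and 38.0 FPKM and at 37.6, 32.6 and 30.9 FPKM. It was the only loader gene with separate ranges (-0.25, SE 0.13, limma adjusted p = 0.312), while Rfc2, Rfc3 and Rfc5 had changes above 0 and Rfc4 below, none with an unadjusted p under 0.05. With the Y-linked term Rfc3, Rfc4 and Rfc5 had the other sign.

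RPA, which coats and protects single-stranded DNA at the fork, had all 3 subunit genes above 0 (59.3% of all genes tested). Rpa2 was at 74.1, 72.1 and 53.8 FPKM in wild-type and 87.8, 95.7 and 124 FPKM in Q-KO libraries. Its ranges were separate, and the log2 change was 0.61 (SE 0.18, 95% interval 0.19 to 1.03, limma adjusted p = 0.110). Rpa1, the large subunit, was at 99.2, 93.9 and 88.7 FPKM and at 115, 116 and 107 FPKM, also without overlap (0.26, SE 0.12, limma adjusted p = 0.252). Rpa3 was at 77.3, 107 and 90.5 FPKM and at 118, 106 and 135 FPKM, where wild-type replicate 2 overlapped the Q-KO range (0.39, SE 0.16, unadjusted p = 0.0419, limma adjusted p = 0.211). None of the 3 passed over all genes. The sum of the 3 was 251, 273 and 233 FPKM in wild-type and 321, 317 and 365 FPKM in Q-KO libraries. With the term for Y-linked transcripts, which sets the Q-KO libraries against wild-type replicate 3 alone, the change of Rpa2 was 0.90. That library was the lowest for Rpa2, and without it the change was 0.47 (limma adjusted p = 0.184).

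Neither gene of Okazaki fragment maturation passed. Fen1, the nuclease that trims the flap between fragments, was at 44.7, 39.6 and 39.7 FPKM in wild-type and 52.5, 52.2 and 53.2 FPKM in Q-KO libraries. The Q-KO libraries were nearly equal and all above the wild-type ones (0.34, SE 0.12, unadjusted p = 0.0189, limma adjusted p = 0.145). Lig1, the ligase that seals the fragments, was at 111, 85.9 and 81.6 FPKM and at 94.8, 82.2 and 79.3 FPKM, with overlap (-0.11, SE 0.16, limma adjusted p = 0.726). With the Y-linked term its change was 0.06.

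All 4 nucleotide synthesis genes had a log2 change above 0, as did 59.3% of all genes tested, with no call. With median-of-ratios scaling the count was 3 of 4, with Rrm1 at -0.03. Tk1, the salvage enzyme thymidine kinase, was at 59.5, 60.8 and 64.0 FPKM in wild-type and 71.3, 74.3 and 84.8 FPKM in Q-KO libraries. Its ranges were separate (0.31, SE 0.12, unadjusted p = 0.0345, limma adjusted p = 0.193). Rrm2, the regulated subunit of ribonucleotide reductase, was the most variable member, at 199, 148 and 92.0 FPKM in wild-type and 193, 179 and 156 FPKM in Q-KO libraries. The 3 Q-KO values lay within the wild-type range (0.33, SE 0.26, limma adjusted p = 0.503). Without wild-type replicate 3 the log2 change was 0.03, and the term for the Y-linked split gave 0.92 (adjusted p = 0.0493), so its size depends on that library. Rrm1, the large reductase subunit, was at 68.6 ± 3.75 and 73.9 ± 9.47 FPKM, and Tyms, thymidylate synthase, at 26.2 ± 4.59 and 29.0 ± 2.22 FPKM.

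The histone supply genes gave no call. Slbp, which binds the stem-loop of replication-dependent histone mRNAs, was at 69.5, 73.5 and 68.0 FPKM in wild-type and 90.0, 74.1 and 87.1 FPKM in Q-KO libraries. The ranges just failed to touch (0.24, SE 0.13, limma adjusted p = 0.313). The subunits of the histone chaperone CAF-1 overlapped, Chaf1a at 25.9 ± 4.48 and 25.2 ± 1.94 FPKM and Chaf1b at 56.1 ± 1.44 and 57.1 ± 9.29 FPKM.

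Wild-type replicate 3 differed from the other wild-type libraries by chromosome, which touched some of the members. Over all tested genes its median log2 difference from the mean of wild-type replicates 1 and 2 was 0.25 on chromosome 8 and 0.25 on chromosome 11, and between -0.12 and 0.02 on the other autosomes and X. Of the 10 members on chromosomes 8 and 11 (Cdt1, Gins2, Gins3, Gins4, Mcm5 and Orc6, and Cdc6, Pold2, Rpa1 and Tk1), 9 were above 0 in this difference, with a median of 0.18. Of the 37 on other chromosomes, 9 were above 0, with a median of -0.13, so that in this library many members were a little below the other wild-type libraries, Rrm2 the furthest at -0.89. With each library centred by chromosome, 4 members passed, Pold1, Pold2, Mcm10 and Pola1, all lower in the Q-KO libraries. Of these, only Pold2 lies on chromosome 8 or 11. The centring acts on every chromosome and shifted the median change of all genes by -0.07. Median-of-ratios scaling, which shifted it by -0.12, gave the same 4 members. With centring 466 of the 11573 genes tested passed, 181 of them lower, and with median-of-ratios scaling 418, 185 of them lower. The main settings gave 470, with 118 lower, so lower calls were more frequent over all genes in both alternatives.

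**Figure D4:**
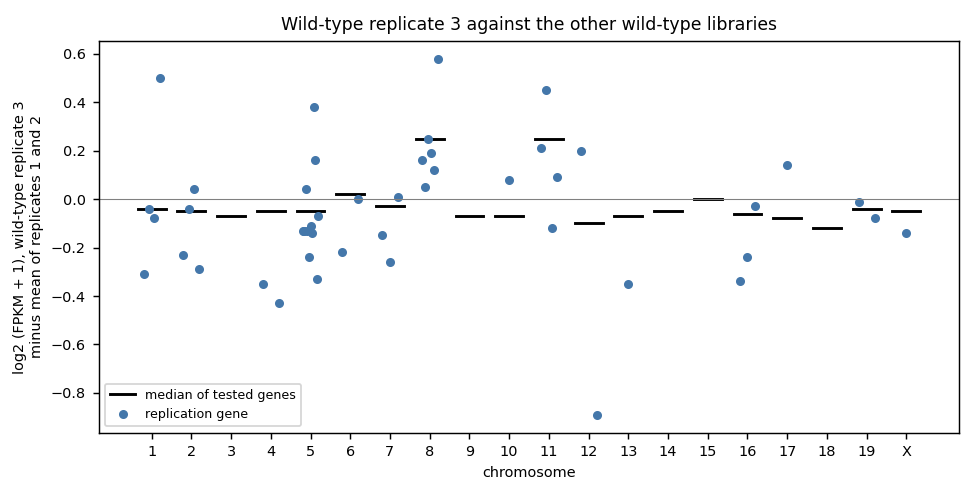
Difference of wild-type replicate 3 from the mean of wild-type replicates 1 and 2, in log2(FPKM + 1), for each replication gene (point) and the median of all tested genes (line) by chromosome. The medians of chromosomes 8 and 11 stand at 0.25, and the lowest point is Rrm2 on chromosome 12 at -0.89.

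Within the Q-KO group, replicate 2 was the lowest library for 24 of the 47 members (51.1%), against 16.7% of all genes tested, and the highest for 3 (6.38%, against 34.1%). The median difference of the members in that library from the other Q-KO libraries was -0.07, while that of all tested genes was 0.05. In the wild-type group, replicate 1 was the highest library for 22 members (46.8%, against 29.2% of all genes).

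A further list of replication genes, which did not include the 47, gave no call. Of 55 tested genes of licensing, fork protection, further polymerase subunits, clamp loading, nucleotide synthesis and histone chaperoning, 0 passed the adjusted limma test (background 4.06%). The unadjusted p was under 0.05 for 9 (16.4%, background 21.5%). By direction, these were 5 genes above 0 (9.09%, background 14.8%) and 4 below (7.27%, background 6.70%). Over the 55 the median change was 0.03 on the log2 scale. Separate ranges were found for 11 of the 55 (20.0%, background 27.7%). Of the 55, 7 were separate and higher (12.7%, background 18.2%) and 4 separate and lower (7.27%, background 9.44%). Of the 7 higher genes with separate ranges, the 4 with the largest change are described first. The histone chaperone gene Asf1a had 17.4, 20.0 and 15.5 FPKM in wild-type and 29.1, 25.4 and 26.2 FPKM in Q-KO libraries (0.59, limma adjusted p = 0.0611). The fork factor gene Donson had 12.8, 12.9 and 9.09 FPKM and 15.8, 18.6 and 16.3 FPKM (0.52, limma adjusted p = 0.129). With the Y-linked term, which leaves wild-type replicate 3 alone as the control, its change was 0.82. For the histone-binding gene Rbbp4 the change was 0.73 with that term. Rbbp4 had 127, 117 and 90.9 FPKM and 147, 154 and 154 FPKM (0.45, limma adjusted p = 0.138). The thymidylate kinase gene Dtymk had 185, 177 and 183 FPKM and 240, 227 and 298 FPKM (0.47, limma adjusted p = 0.112). For Donson and Rbbp4 the lowest library was wild-type replicate 3, and for Dtymk the wild-type libraries were nearly equal.

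The 4 genes below 0 with separate ranges (7.27%, against 9.44% of all genes tested) were Rif1, Atad5, Topbp1 and Nasp. Rif1, a regulator of origin timing, had 62.1, 56.7 and 70.1 FPKM in wild-type and 53.5, 40.4 and 27.1 FPKM in Q-KO libraries (-0.68, limma adjusted p = 0.147). The clamp unloader gene Atad5 had 9.32, 10.1 and 12.5 FPKM and 9.01, 6.79 and 5.06 FPKM (-0.57, limma adjusted p = 0.173). Q-KO replicate 3 was the lowest library for both, and without it the change was -0.42 for Rif1 and -0.39 for Atad5. The helicase activation factor gene Topbp1 had 51.7, 49.5 and 56.8 FPKM and 44.5, 39.7 and 32.9 FPKM (-0.43, limma adjusted p = 0.144). The histone chaperone gene Nasp had 311, 260 and 274 FPKM and 234, 197 and 231 FPKM (-0.35, limma adjusted p = 0.197). Topbp1 was also lowest in Q-KO replicate 3, and Nasp in Q-KO replicate 2.

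**Figure D5:**
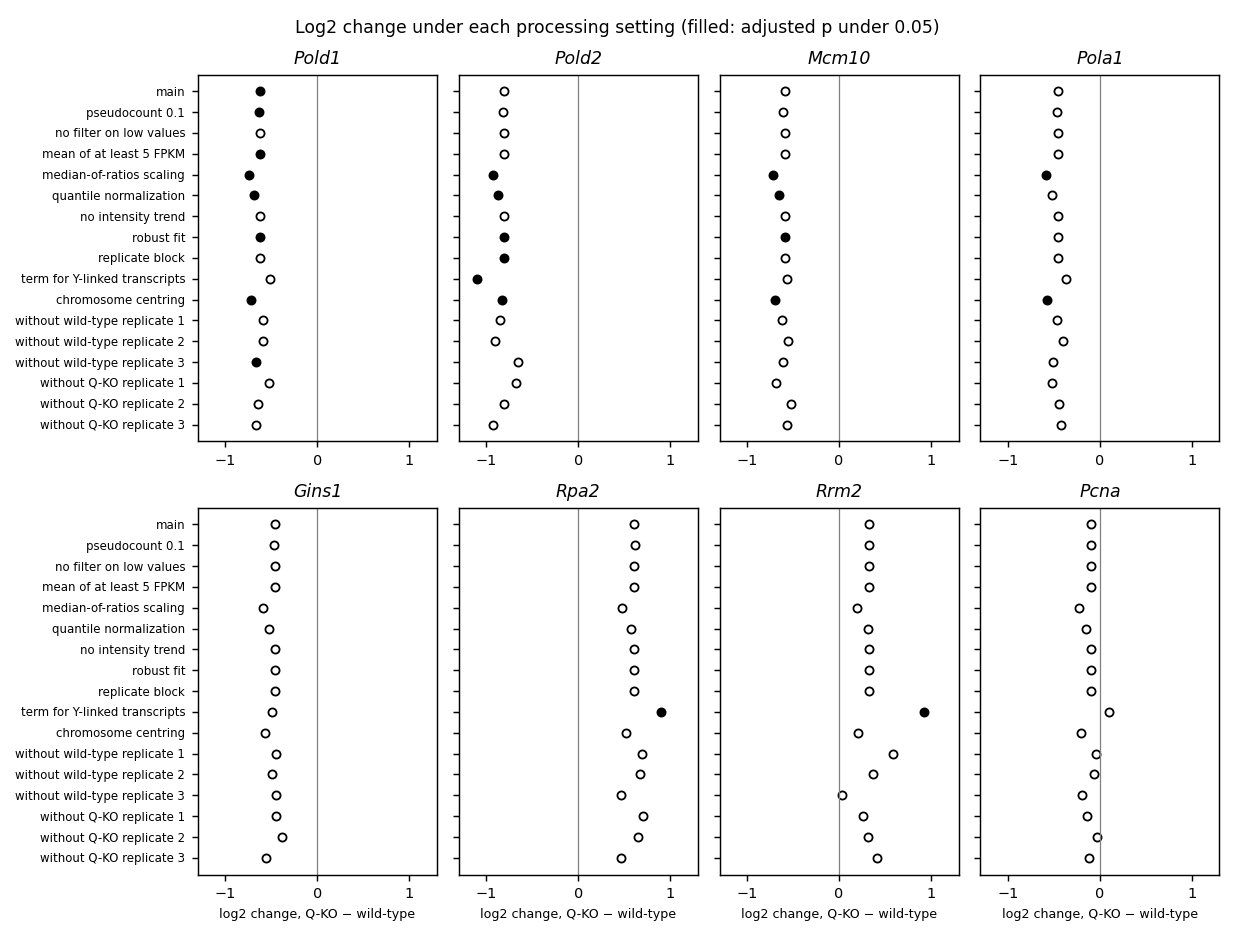
Log2 change (Q-KO minus wild-type) of 8 replication genes under each processing setting, with a row for each setting, with filled points for an adjusted p under 0.05. Pold1, Pold2, Mcm10, Pola1 and Gins1 stay below 0 and Rpa2 stays above 0 in all rows, whereas Rrm2 runs from 0.03 to 0.92 and Pcna from -0.23 to 0.10.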

How the data were processed

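Total RNA of 3 wild-type and 3 Q-KO ES cell libraries was sequenced as Illumina libraries, per the labels' protocols. The authors deposited 1 table of FPKM per gene symbol. The submitters' processing notes name Cufflinks, STAR 2.5, bcl2fastq 2.16, CASAVA and the build mm9, without role or order. The sources used here do not give the annotation, the strand setting or the read depth, so no counting interval was computed. The groups and replicate numbers came from the sample titles. A stray header row was dropped.

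Values were analysed as log2(FPKM + 1) for genes whose mean reached 1 FPKM, with limma 3.58.1 in R 4.3.3 (eBayes with an intensity trend), two-sided, Benjamini-Hochberg adjusted over all 11573 genes. A log2 change on this scale understates changes of low genes. The script was tested on simulated data. The members, roles and gene lists, as well as the rule for naming genes, were chosen with earlier results of these data known. All members may be named; values in each library are given for members with an unadjusted p under 0.05 or separate ranges and for the most abundant of each role, and of the other replication genes for up to 4 per direction with the largest change among those that meet both criteria. Pole, shown beside Pole2, is an addition, as are the changes of Pole3, Pole4, Pold3 and Pold4. Chromosomes, overlaps and promoters came from RefSeq, GRCm38.p6. The alternatives were another pseudocount, filter, scaling or variance model, a replicate block, a term for Y-linked transcripts, centring by chromosome and leaving out each library.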

Additional observations from a re-analysis of the deposited data

How the results depend on the processing

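The count of the 47 members past the threshold was 1 with all libraries and the main settings. It was 0 with no filter on low values and with no intensity trend, 3 with quantile normalization, a robust fit or the term for Y-linked transcripts, 4 with median-of-ratios scaling or centring by chromosome, and 0 to 1 when a library was left out. The count with an unadjusted p under 0.05 was 7 without Q-KO replicate 2 (7 to 10 over the fits that leave out a library). The median log2 change of the members was -0.17 with median-of-ratios scaling, which lowered the median of all genes by 0.12. With centring by chromosome, which shifted the median of all genes by -0.07, the members' median was -0.13. It was 0.03 with the term for Y-linked transcripts and 0.02 without wild-type replicate 1 (-0.06 to 0.02 when a library was left out). The count of all genes past the threshold was 470 (352 higher, 118 lower), 184 with no filter, 266 with a mean of at least 5 FPKM, 894 with the term for Y-linked transcripts and 28 to 566 when a library was left out; with median-of-ratios scaling it was 418 (233 higher, 185 lower), with quantile normalization 457 (247 and 210) and with centring by chromosome 466 (285 and 181). Of the other replication genes, 3 passed with the term for Y-linked transcripts (Dut, Donson and Rbbp4). Of the 47 members, 12 had the other sign with the term for Y-linked transcripts, 8 without wild-type replicate 1, 6 with median-of-ratios scaling and at most 5 in each other alternative. Among those with values in each library, the term turned the log2 changes of Gmnn (0.10), Mcm7 (0.02), Pcna (0.10), Lig1 (0.06) and Pole positive. Those of Mcm7, Lig1 and Pole turned positive without wild-type replicate 1 (ranges when a library was left out -0.13 to 0.03, -0.20 to 0.02 and -0.14 to 0.14). The cause of these shifts was not tested. The replicate numbers were not taken to pair the libraries: deviations of same-numbered libraries correlated at -0.028, 0.012 and 0.022, and with the replicate block 333 genes and 1 member, Pold2, passed.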
